A study of Danio rerio with 20 samples.

Results

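Long non-coding RNA (lncRNA) genes are gene models that are transcribed but carry no annotated protein. In the gene table of zebrafish larvae examined here they were the gene models with an Ensembl identifier and a biotype of lincRNA, lncRNA, antisense, processed_transcript, sense_intronic or sense_overlapping. The rule found 2656 of the 38718 gene models of the table, beside 25431 protein-coding genes. They comprised 1046 processed transcripts, 874 lincRNA genes, 672 antisense genes, 57 sense_intronic genes and 7 sense_overlapping genes, while the biotype lncRNA held 0.

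Many lncRNAs are capped, spliced and polyadenylated like messenger RNA, but they are commonly made at lower levels and in fewer cell types. Some act as RNA, such as malat1, which gathers in nuclear speckles, or the transcript of oip5-as1 (Cyrano), which in mouse directs the destruction of the microRNA miR-7. Others are hosts, whose spliced or cleaved transcripts release snoRNAs, the guides that direct chemical modification of ribosomal RNA, or microRNAs, which silence messenger RNAs.

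RNA sequencing measured whole larvae in 20 libraries, 4 in each of 5 groups. The groups were citalopram at 1000 µg/L and at 10 µg/L, ifosfamide at 100 µg/L and at 1 µg/L, and ERM. Citalopram inhibits serotonin reuptake, and ifosfamide is an anticancer agent that alkylates DNA. What ERM stands for is not in the labels, which give it 1 µg/L without a compound. It was taken to be the group with neither drug, which the labels do not state, and served as the reference. Strain, genotype, age and length of exposure are not given in the sources used here. The labels state 5 exposed beakers for a treatment, of which 4 were sequenced, so each library was treated as a separate beaker, and p-values measure the spread between beakers. RNA was selected by poly(A), so transcripts without a poly(A) tail were not sampled evenly.

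The libraries held 10699832 to 17311011 recovered reads. Markers of the nervous system (elavl3, gfap), muscle (myl1, actc1b), liver (fabp10a), exocrine pancreas (prss1, ela2l), skin (krt4), red cells (hbae3), lens (cryaa), rods (rho), heart (myl7), macrophages (mpeg1.1) and intestine (fabp2) were above 0 in all 20 libraries. The oocyte genes zp2.1 and gdf9 averaged 0.0116 and 0.0209 FPKM (fragments per kilobase of gene length, scaled for depth), and the testis gene odf3b 0.0142 FPKM. The meiosis gene sycp3 averaged 0.244 FPKM and was above 0 in 18 libraries, and mpeg1.1 averaged 0.397 FPKM. In such bulk samples fewer cells of a type and less RNA per cell cannot be told apart. Library C of citalopram 1000 µg/L stood apart, and named differences that it moved by over 1.5 times are also given without it.

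The annotation of these genes sets limits on their values. Their median length was 751 bases, against 2163 bases for protein-coding genes. LincRNA denotes a long intergenic RNA, but 144 of these genes overlapped a gene model on the opposite strand and 100 one on the same strand. Of the 2656, 1384 overlapped another gene model, 1077 of them one on the opposite strand and 441 one on the same strand. The library kit keeps the strand of the RNA, but whether the counting used it is not given in the sources used here. Reads from stretches that overlapping genes share therefore cannot be told apart. Overlap was taken from the start to the end of each gene, introns included, and the reads on shared stretches were not counted. Reference symbols were found for 2540 of the genes, and 2527 of these differ from the clone-based names in the table. Matched by symbol to RefSeq genes of the GRCz12tu assembly, 138 were lncRNA genes there and 76 were protein-coding genes, while 2439 had no match. Among the 76 were FO704736.1 (ENSDARG00000036044), whose reference symbol is rps20, a protein of the small ribosomal subunit, BX005416.1 (mhc1zda), a class I histocompatibility gene, CT573065.1 (dio3b), a deiodinase that inactivates thyroid hormone, and CR759794.1 (mocos), an enzyme that completes the molybdenum cofactor. These genes follow the biotype of the table and were kept, and key values are also given without them. Chromosome 4, whose long arm is rich in repeats, carried 275 lncRNA genes, which is 10.4% of them against 5.80% of protein-coding genes. The next was chromosome 3 with 149, and all 25 chromosomes carried some.

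Most lncRNA genes were detected, few at more than a trace. At least 1 read in at least 1 library was found for 2052 of the 2656 (77.3%), against 94.9% of protein-coding genes. A total of 604 had no read in any library, 729 had 1 to 9 reads over all libraries, and 1323 had 10 or more. In all 20 libraries a read was found for 458 (17.2%), against 73.3% of protein-coding genes. Among genes with a read, the median of the mean level was 0.0932 FPKM for lncRNA genes and 2.36 FPKM for protein-coding genes. A mean of at least 1 FPKM over the 20 libraries, the limit set for testing, was reached by 370 lncRNA genes (13.9%) and by 62.2% of protein-coding genes. BX927361.1 lay just inside that limit at 1.00 FPKM and BX248521.2 just outside at 0.999 FPKM. At least 10 FPKM was reached by 71 lncRNA genes and at least 100 FPKM by 3. By biotype, 164 lincRNA, 131 processed transcript, 68 antisense, 5 sense_intronic and 2 sense_overlapping genes reached 1 FPKM.

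**Figure D1:**
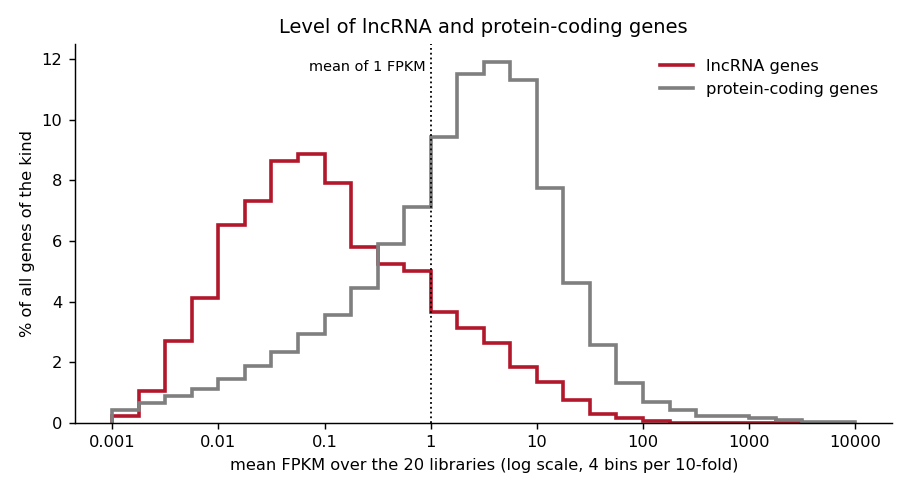
Distribution of the mean FPKM over the 20 libraries (log axis) for lncRNA genes and protein-coding genes, as % of all genes of each kind in bins of even width on the log axis. Genes without a read are not drawn, and the lncRNA curve lies to the left, with 13.9% of its genes at or above 1 FPKM against 62.2% of protein-coding genes.

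The number of detected lncRNA genes overlapped between groups, and 1 library stood apart. On average 1053 ± 236 lncRNA genes had a read in a library of citalopram 1000 µg/L, 1078 ± 50.9 in one of citalopram 10 µg/L, 1116 ± 56.5 in one of ifosfamide 100 µg/L, 1159 ± 37.2 in one of ifosfamide 1 µg/L and 1088 ± 42.6 in ERM (SD, n = 4 each). Library C of citalopram 1000 µg/L had 700, against 1006 to 1191 in the other 19 libraries, and the mean of its group without it was 1171 ± 22.5 (SD, n = 3). The same library had a read for 19843 protein-coding genes, against 21619 to 22201 in the others. It held 13654523 recovered reads, but fewer reads stood behind each FPKM than in the other libraries of its dose. For BX901923.2, 367 reads gave 9.56 FPKM in library C. Libraries A, B and D had 782 reads at 10.5 FPKM, 1179 at 15.9 FPKM and 768 at 12.5 FPKM. The part of this in the low detection of library C was not tested. A read in all 4 libraries of the group was found for 558 lncRNA genes in citalopram 1000 µg/L, for 695 in citalopram 10 µg/L, for 704 in ifosfamide 100 µg/L, for 737 in ifosfamide 1 µg/L and for 702 in ERM. The 3 libraries of citalopram 1000 µg/L other than C shared 798. A group mean of at least 1 FPKM was reached by 373, 351, 368 and 389 lncRNA genes in the citalopram 1000, citalopram 10, ifosfamide 100 and ifosfamide 1 µg/L groups, and by 368 in ERM, and 309 reached it in every group.

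LncRNA genes took 0.544% to 0.754% of the recovered reads of a library. The share was 0.660% ± 0.0253 in citalopram 1000 µg/L, 0.625% ± 0.0695 in citalopram 10 µg/L, 0.664% ± 0.0273 in ifosfamide 100 µg/L, 0.681% ± 0.0520 in ifosfamide 1 µg/L and 0.654% ± 0.0173 in ERM (SD, n = 4 each), and the libraries of the groups overlapped. A large part came from a pair of genes. FO704736.1 (rps20) held 10.9% to 35.3% of the lncRNA reads of a library, and CR383676.1 (malat1) held 14.5% to 24.8%. Library C of citalopram 1000 µg/L was the one at 35.3%, and the other 19 libraries held 10.9% to 29.3% in FO704736.1. Without the 76 genes whose symbol is protein-coding in RefSeq, the shares were 0.428%, 0.419%, 0.479% and 0.498% in the citalopram 1000, citalopram 10, ifosfamide 100 and ifosfamide 1 µg/L groups and 0.460% in ERM.

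**Figure D2:**
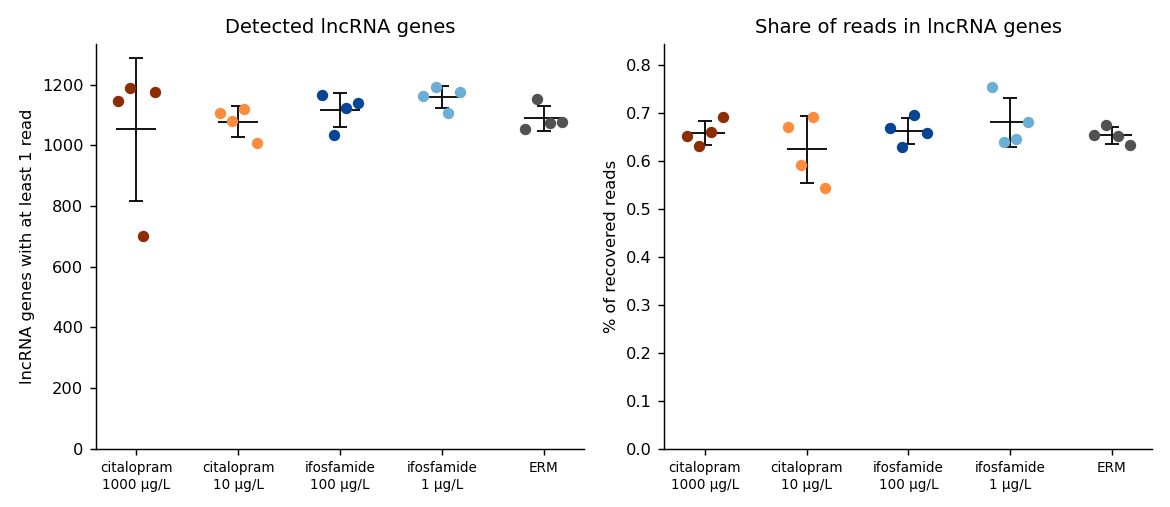
Left, number of lncRNA genes with at least 1 read, and right, % of recovered reads in lncRNA genes, with a point per library, the mean as a bar and the SD as whiskers. Library C of citalopram 1000 µg/L stands at 700 detected genes, while its share of reads lies among the others.

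The 10 lncRNA genes with the highest mean level lay on 10 different chromosomes, in the GRCz11 coordinates of the table. FO704736.1 (rps20, chromosome 7, 58745987 to 58750400, plus strand) averaged 2551 FPKM and ranged from 1218 to 6984 FPKM. Its values were 3733, 2565, 6984 and 1218 FPKM in libraries A to D of citalopram 1000 µg/L, and its group mean there was 3625 ± 2464 FPKM, against 2456 ± 297 FPKM in ERM (SD, n = 4 each). Without library C the citalopram 1000 µg/L mean was 2506 ± 1259 FPKM (SD, n = 3). The highest and the lowest value of the 20 libraries thus stood in the same group. CR383676.1 (malat1, ENSDARG00000099970, chromosome 14, 45631236 to 45638712, minus strand) followed at 171 FPKM, with a range of 114 to 241 FPKM. LO018013.1 (chromosome 2), whose reference symbol is a protein-coding RefSeq gene, averaged 124 FPKM.

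BX936337.1 (chromosome 9, 96.0 FPKM) lies on the same strand as si:dkey-100n23.3 and shares 2325 bases of its span with it. In library C of citalopram 1000 µg/L its level was 290 FPKM, against 49.7 to 106 FPKM in the other libraries. CR354556.3 (chromosome 23) averaged 76.6 FPKM and overlaps CR354556.2 on the opposite strand, which averaged 0.106 FPKM. CR376766.2 (chromosome 13, 73.9 FPKM) lies 1527 bases from klhl31, a Kelch-family gene of muscle, on the same strand. It had 51.4, 53.1, 85.4 and 37.0 FPKM at citalopram 1000 µg/L, against 97.8, 73.3, 114 and 109 FPKM in ERM, with overlap and a log2 difference of -0.83 (SE 0.28, limma adjusted p = 0.417). The difference of klhl31 there was -0.78 (limma adjusted p = 0.0772). FP074902.2 (lnc.85, chromosome 19, 61.9 FPKM) holds 3 snoRNA genes, and BX322618.1 (chromosome 20) averaged 48.7 FPKM. FQ323156.1 (chromosome 16, 47.4 FPKM) has hmgn2, a nucleosome-binding protein gene, as its nearest gene model. BX248318.1 (chromosome 11, 43.2 FPKM) has a protein-coding RefSeq symbol and shares 8768 bases of its span with si:ch211-220m17.4 on the same strand.

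Hosts of small RNAs stood high among the lncRNA genes. Those that hold a whole snoRNA or scaRNA gene on their own strand numbered 10, of which 8 reached 1 FPKM, with a median of 12.2 FPKM over the 10. Those that hold a whole microRNA gene numbered 26, of which 16 reached 1 FPKM, with a median of 2.35 FPKM. Of the 2620 that hold neither, 346 (13.2%) reached 1 FPKM, and their median was 0.0440 FPKM. These sets were drawn after values were seen and are given without a test. The snoRNA hosts were led by FO704736.1 and FP074902.2, followed by FP101887.1 (31.1 FPKM, 4 snoRNA genes) and si:dkey-23i12.5 (28.4 FPKM, 6 snoRNA genes). CU467861.1 (gas5, chromosome 8, 16609666 to 16613493, minus strand), a host known across vertebrates, holds 8 snoRNA genes and averaged 2.27 FPKM.

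Among microRNA hosts, 4 hold copies of mir-9, a microRNA of neural progenitors. They were CU467822.1 (mir-9-6, 21.5 FPKM), CR848047.1 (mir-9-1, 18.4 FPKM), BX465834.1 (mir-9-5, 14.9 FPKM) and BX664610.1 (mir-9-4, 8.12 FPKM). FP085414.1, which holds mir-137-2, a neuronal microRNA, averaged 17.7 FPKM. Hosts of other microRNAs known from brain were low, with BX001023.2 (mir-219-2) at 0.590 FPKM, CR376774.1 (mir-129-2) at 0.355 FPKM and BX323065.1 (mir-219-1) listed at 0. Among hosts of muscle microRNAs, BX276101.1 (mir-206-1 and mir-133b) averaged 4.29 FPKM and CR589876.1 (mir-1-1 and mir-133a-2) 1.61 FPKM. CR388207.1, which holds mir-34a, a target of p53 in mammals, averaged 1.59 FPKM.

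No host of either kind passed the threshold in any comparison of groups at the main settings. The 8 tested snoRNA hosts had median log2 differences from ERM of -0.05 for citalopram 1000 µg/L, 0.09 for citalopram 10 µg/L, -0.24 for ifosfamide 100 µg/L and -0.26 for ifosfamide 1 µg/L. All 8 had a negative value at ifosfamide 100 µg/L and 7 of the 8 at ifosfamide 1 µg/L, comparisons that share the ERM libraries. Of the 370 tested lncRNA genes, 182 and 173 were negative there. The 8 hosts were measured in the same libraries, so they are not separate replicates of a direction. The corresponding medians over all 370 tested lncRNA genes were -0.02, -0.05, 0.01 and 0.02. For the 16 tested microRNA hosts the medians were -0.01, -0.08, -0.07 and -0.08. Without library C the median at citalopram 1000 µg/L was -0.32 for the snoRNA hosts, with all 8 below 0, -0.13 for the microRNA hosts and -0.01 for all 370. Of the 370, 189 were then below 0. BX664610.1 had 8.62, 4.88, 6.85 and 5.82 FPKM at citalopram 10 µg/L, against 9.06, 10.2, 9.20 and 8.99 FPKM in ERM. Its groups did not overlap, with a log2 difference of -0.48 (SE 0.16, limma adjusted p = 1.00). At ifosfamide 1 µg/L BX664610.1 had 8.85, 8.69, 8.57 and 8.36 FPKM, also below every ERM library (-0.11, SE 0.16, limma adjusted p = 0.861). With BX465834.1 it made up the 2 of 16 tested microRNA hosts wholly below ERM there, where 4.80% of all gene models were. BX276101.1 had 4.49, 4.88, 9.40 and 3.89 FPKM at citalopram 1000 µg/L, against 3.31, 3.08, 3.53 and 3.03 FPKM in ERM, also without overlap (0.59, SE 0.24, limma adjusted p = 0.567), or 0.35 without library C. At citalopram 10 µg/L it had 3.69, 4.23, 5.18 and 4.73 FPKM, again above every ERM library (0.36, SE 0.24). CR589876.1 averaged 0.934 ± 0.485 FPKM at ifosfamide 1 µg/L and 2.14 ± 0.678 FPKM in ERM (SD, n = 4 each), a log2 difference of -0.71 (SE 0.24, limma adjusted p = 0.787).

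Values of lncRNA genes varied more between libraries of a group than those of protein-coding genes at like levels. Between 1 and 10 FPKM, the median coefficient of variation (CV, the pooled SD within groups over the mean) was 0.383 for 299 lncRNA genes and 0.270 for 11219 protein-coding genes. The lncRNA genes of that class had fewer reads, with a median of 31.7 per library against 111, as their median length was 862 bases against 2509. Counting alone gives a CV of 0.178 at the median depth of these lncRNA genes and of 0.0948 for the protein-coding genes. At 10 to 100 FPKM the CVs were 0.252 for 68 lncRNA genes and 0.213 for 4123 protein-coding genes, with counting CVs of 0.0568 and 0.0401. At 0.1 to 1 FPKM they were 0.897 and 0.548, with counting CVs of 0.614 and 0.304. The part of depth in these differences was not tested. In each of the 20 libraries the deviation from the other 3 of the group had a larger SD over lncRNA genes than over protein-coding genes. This was taken over all tested genes of each kind, matched for neither level nor depth, so it does not bear on like levels. In library C of citalopram 1000 µg/L it was 0.975 over lncRNA genes and 0.858 over protein-coding genes (log2), and in the other 19 libraries 0.354 to 0.708 and 0.238 to 0.643.

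**Figure D3:**
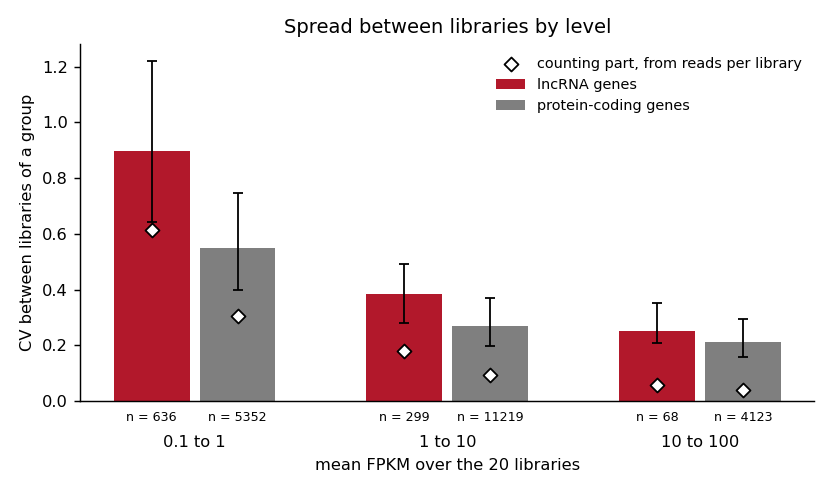
Median CV between libraries of a group for lncRNA genes and protein-coding genes in 3 classes of mean FPKM, with quartiles over genes as whiskers and the CV that counting alone gives as diamonds. At 1 to 10 FPKM the medians were 0.383 and 0.270.

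Single genes spanned a wide range of spread. The most variable of the 370 was AL929237.1, with an SD of 0.984 (log2(FPKM + 1), pooled within groups) and values from 0.208 to 42.6 FPKM. BX511023.1 (SD 0.925), whose end lies 94 bases from cdh7a on the same strand, was listed at 0 in library C of citalopram 1000 µg/L and reached 8.39 FPKM in another library. CR932983.2 (SD 0.881) is 97 bases long and rested on 75 reads in all. CU459093.1 (SD 0.825) lies inside srsf11, a splicing factor gene of the SR family, on the same strand, and opposite trappc10 (10.2 FPKM). It had 17.2, 22.4, 3.91 and 55.6 FPKM in libraries A to D of citalopram 1000 µg/L, against 23.5, 39.8, 38.2 and 26.2 FPKM in ERM. The least variable were BX569787.1 (SD 0.101, 1.28 to 2.00 FPKM), which overlaps nr2f2, an orphan nuclear receptor gene, on the opposite strand, and CR759794.1 (mocos, SD 0.139).

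To ask whether exposure changed lncRNA levels, each exposed group was set against ERM and, within a drug, the higher against the lower dose. No lncRNA gene passed the threshold, a limma adjusted p under 0.05 over all 19723 gene models tested, in any comparison. At citalopram 1000 µg/L this was 0 of 370, against 0.0304% of all gene models tested, and 45 (12.2%) had an unadjusted p under 0.05, against 7.27% of all gene models. Of the 45, 12 had a higher and 33 a lower mean than ERM. Without library C the shares were 11.4% and 8.66%, and without library D 15.9% and 14.5%. At citalopram 10 µg/L the count was also 0, against 0.0101% of all gene models, and 18 (4.86%) had an unadjusted p under 0.05, against 2.42%.

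Against ERM, the shares for ifosfamide were near those of all gene models. At 100 µg/L the count was 0, against 0% of all gene models, and 11 lncRNA genes (2.97%) had an unadjusted p under 0.05, against 3.27%. At 1 µg/L the count was again 0, against 0%, and 17 (4.59%) had an unadjusted p under 0.05, against 4.80%. Without library C of citalopram 1000 µg/L, which enters the shared spread, these counts were 19 (5.14%, against 5.79%) and 28 (7.57%, against 8.58%). Fitted with ERM alone, they were 28 (7.57%, against 8.34%) and 46 (12.4%, against 14.7%), and the citalopram counts were 32 (8.65%, against 4.37%) at 1000 µg/L and 32 (8.65%, against 4.08%) at 10 µg/L. Between the doses of citalopram the count was 0, against 0% of all gene models, with 15 lncRNA genes (4.05%, against 3.67%) at an unadjusted p under 0.05. Between the doses of ifosfamide it was 0, against 0%, with 7 (1.89%, against 0.852%). These 7 include CU633486.1, which reached the limit for testing only through ifosfamide 1 µg/L, a group of this comparison. For the mean of the 4 drug groups against ERM the count was 0, against 0.0254%, with 20 (5.41%, against 3.60%). In the F-test over all 4 drug groups it was 0, against 0%, with 31 (8.38%, against 5.77%). Voom, a count-based form of limma, was run on the recovered reads and called 0 of 500 lncRNA genes in each of these comparisons. Its counts at an unadjusted p under 0.05 against ERM were 50 (10.0%, against 6.51% of all gene models), 26 (5.20%, against 2.58%), 12 (2.40%, against 3.28%) and 23 (4.60%, against 4.76%) in the order citalopram 1000, citalopram 10, ifosfamide 100 and ifosfamide 1 µg/L.

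Weighting the libraries by their spread made calls among lncRNA genes and among all gene models alike. A single weight per library called 89 lncRNA genes (24.1%, against 19.7% of all gene models) at citalopram 1000 µg/L, 1 (0.270%, against 0.0254%) at citalopram 10 µg/L, 2 (0.541%, against 1.06%) at ifosfamide 100 µg/L and 3 (0.811%, against 0.953%) at ifosfamide 1 µg/L. Between the citalopram doses it called 24 (6.49%, against 5.12%), for the mean of the drug groups 6 (1.62%, against 0.771%) and in the F-test 185 of 370, against 46.4%. The estimate of these weights did not converge. A gene-by-gene estimate called 5 (1.35%, against 0.847%), 1 (0.270%, against 0.0304%), 8 (2.16%, against 4.36%) and 36 (9.73%, against 10.3%) in the order citalopram 1000, citalopram 10, ifosfamide 100 and ifosfamide 1 µg/L against ERM. For the mean of the drug groups it called 9 (2.43%, against 1.04%), and in the F-test 47 (12.7%, against 10.9%).

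Median log2 differences over the 370 genes lay near 0, at -0.02 for citalopram 1000 µg/L, -0.05 for citalopram 10 µg/L, 0.01 for ifosfamide 100 µg/L and 0.02 for ifosfamide 1 µg/L. Over all gene models tested they were 0.0003, -0.0016, -0.0090 and -0.0069. The median standard error was 0.25 for lncRNA genes and 0.20 for protein-coding genes in each comparison of 2 groups. At citalopram 1000 µg/L all 4 exposed libraries lay above all 4 ERM libraries for 7 lncRNA genes (1.89%, against 1.40% of all gene models) and below them for 17 (4.59%, against 2.27%). At citalopram 10 µg/L this held for 4 (1.08%, against 1.38%) and 9 (2.43%, against 1.13%). At ifosfamide 100 µg/L it held for 4 (1.08%, against 1.76%) and 5 (1.35%, against 2.54%), and at ifosfamide 1 µg/L for 9 (2.43%, against 2.19%) and 6 (1.62%, against 4.80%).

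**Figure D4:**
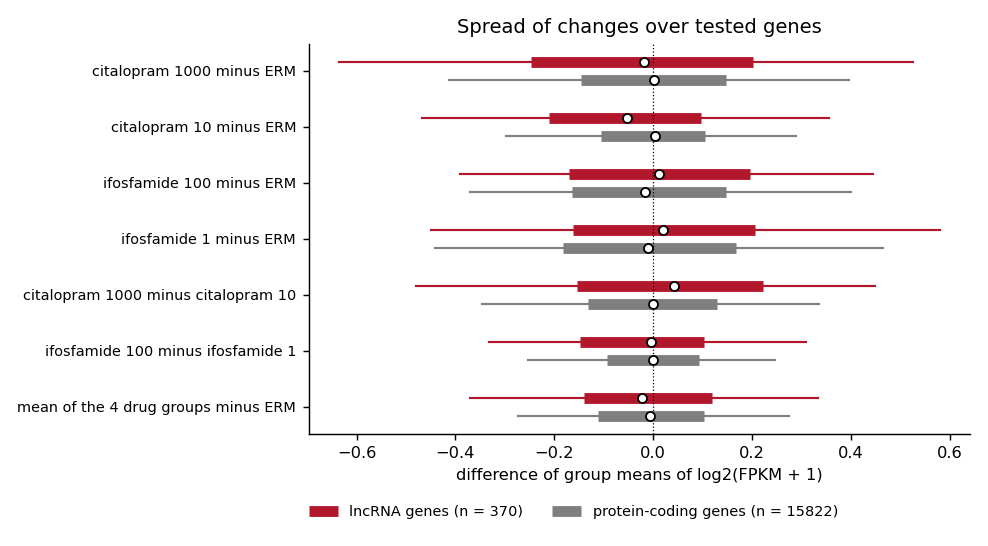
Differences of group means of log2(FPKM + 1) over 370 lncRNA genes and 15822 protein-coding genes in each comparison, with the median as a circle, the middle 50% as a thick bar and the 5th to 95th percentile as a thin line. The medians lie near 0, and the lncRNA bars are wider, as are their standard errors (median 0.25 against 0.20 in the comparisons of 2 groups).

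At citalopram 1000 µg/L the smallest p belonged to CU138533.1 (lnc.433, ENSDARG00000099842, a lincRNA gene on chromosome 3, 43711165 to 43754942, plus strand). It holds the genes of mir-193b and mir-365-1, which in mouse are made together. Its level was 2.65, 2.09, 2.72 and 3.27 FPKM at citalopram 1000 µg/L, against 6.68, 5.84, 5.14 and 4.62 FPKM in ERM, from 170 and 319 reads. All 4 exposed libraries lay below all ERM libraries, with a log2 difference of -0.84 (SE 0.17, limma adjusted p = 0.0772). Over 19 alternative settings the difference was -1.06 to -0.75. It passed the threshold without library D of citalopram 1000 µg/L (limma adjusted p = 0.0380), where 0.203% of all gene models were called, and the adjusted p over the 17 settings without library weights was 0.0380 to 0.426. At the other exposures it averaged 4.18 ± 0.863 FPKM (citalopram 10 µg/L), 4.61 ± 0.803 FPKM (ifosfamide 100 µg/L) and 4.69 ± 1.17 FPKM (ifosfamide 1 µg/L), against 5.57 ± 0.892 FPKM in ERM (SD, n = 4 each). Its span lies within snn, the stannin gene, on the opposite strand, for which the log2 difference at citalopram 1000 µg/L was -0.45 (limma adjusted p = 0.802), or -0.14 without library C.

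BX005417.1 (ENSDARG00000094215), an antisense gene on chromosome 4 (76988215 to 77004811, minus strand) opposite si:dkey-240n22.3, had the next smallest p. It had 8.48, 8.60, 1.63 and 12.3 FPKM at citalopram 1000 µg/L, against 19.9, 27.3, 19.3 and 30.3 FPKM in ERM, and the groups did not overlap. The log2 difference was -1.72 (SE 0.43, limma adjusted p = 0.189), and -1.22 without library C, which held the lowest value. The other 3 drug groups averaged 13.1 ± 7.23 FPKM (citalopram 10 µg/L), 14.1 ± 3.93 FPKM (ifosfamide 100 µg/L) and 15.7 ± 4.77 FPKM (ifosfamide 1 µg/L), against 24.2 ± 5.46 FPKM in ERM (SD, n = 4 each). Of these, citalopram 10 µg/L and ifosfamide 100 µg/L also lay wholly below ERM.

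With a higher mean than ERM, BX901923.2 and AL929237.1 had the smallest p at citalopram 1000 µg/L. BX901923.2 (ENSDARG00000104200, a lincRNA gene on chromosome 15, 17887307 to 17936128, plus strand) had 10.5, 15.9, 9.56 and 12.5 FPKM there, against 9.34, 6.57, 6.16 and 5.63 FPKM in ERM, a log2 difference of 0.72 (SE 0.22, limma adjusted p = 0.325). At citalopram 10 µg/L it had 11.2, 18.3, 12.8 and 12.3 FPKM, again above every ERM library (0.89, SE 0.22, limma adjusted p = 1.00). In ifosfamide it averaged 10.1 ± 1.64 FPKM at 100 µg/L and 11.3 ± 4.09 FPKM at 1 µg/L, against 6.93 ± 1.66 FPKM in ERM (SD, n = 4 each), and both groups overlapped ERM. Against ERM the mean of the 4 drug groups differed by 0.67 (SE 0.17, limma adjusted p = 0.477), the smallest p of any lncRNA gene in that comparison. Its nearest gene model, phldb1b, had a log2 difference of 0.08 in the same comparison (limma adjusted p = 1.00).

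AL929237.1 (ENSDARG00000094104, a lincRNA gene on chromosome 20, 45989179 to 45996430, plus strand) had 6.82, 3.26, 42.6 and 5.09 FPKM at citalopram 1000 µg/L, against 2.04, 2.71, 1.71 and 0.208 FPKM in ERM. The groups did not overlap, and the log2 difference was 1.97 (SE 0.62, limma adjusted p = 0.355), or 1.25 without library C, which held the highest value. At ifosfamide 100 µg/L it had 5.29, 15.1, 4.30 and 7.65 FPKM, also above every ERM library (1.74, SE 0.62, limma adjusted p = 0.920). Its libraries spanned 3.22 to 12.1 FPKM at citalopram 10 µg/L, above ERM, and 1.49 to 12.8 FPKM at ifosfamide 1 µg/L, which overlapped ERM.

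At citalopram 10 µg/L the smallest p was that of FP017215.1 (ENSDARG00000097714, a lincRNA gene on chromosome 3, 62432901 to 62445887, plus strand). Its nearest gene model, 15224 bases away on the opposite strand, is sstr2b, a somatostatin receptor gene. Its level was 9.87, 10.3, 26.0 and 12.2 FPKM at citalopram 10 µg/L, against 1.91, 3.50, 1.97 and 2.87 FPKM in ERM, from 367 and 66 reads. Every exposed library lay above every ERM library, with a log2 difference of 2.04 (SE 0.43, limma adjusted p = 0.432). In a fit that did not hold library C of citalopram 1000 µg/L the same difference passed the threshold (2.04, SE 0.33, limma adjusted p = 0.0300), as did 0.0203% of all gene models. Over 18 settings without library weights the adjusted p was 0.0300 to 1.00, and the difference was 1.74 to 2.39 over all 20 settings.

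At citalopram 1000 µg/L FP017215.1 had 8.60, 4.56, 25.3 and 3.52 FPKM, above the highest ERM library in all 4 (1.35, SE 0.43, limma adjusted p = 0.371). Without library C the difference was 0.83. Both ifosfamide groups lay near ERM, at 3.25 ± 1.34 FPKM for 100 µg/L and 3.97 ± 1.88 FPKM for 1 µg/L, against 2.56 ± 0.764 FPKM in ERM (SD, n = 4 each). It also had the smallest p of any lncRNA gene in the F-test over the 4 drug groups (limma adjusted p = 0.289). Of all gene models tested, the 3 whose log2(FPKM + 1) was most like it over the 20 libraries were cyp1a (Pearson r 0.84, Spearman rho 0.72), ENSDARG00000109310 (0.84 and 0.84) and tha1, a threonine aldolase gene (0.80 and 0.67). These genes were measured in the same libraries, so differences between libraries in depth or in group can enter each r. Without library C of citalopram 10 µg/L and library C of citalopram 1000 µg/L r was 0.71, 0.73 and 0.60. The cyp1a gene, which encodes a cytochrome P450 induced through the aryl hydrocarbon receptor, had 33.4, 27.5, 56.2 and 28.9 FPKM at citalopram 1000 µg/L and 25.9, 31.0, 39.4 and 41.3 FPKM at citalopram 10 µg/L, against 23.0, 20.2, 22.8 and 20.5 FPKM in ERM. Both citalopram groups lay above ERM without overlap, with log2 differences of 0.67 and 0.62, and neither passed the threshold. As cyp1a was picked for its likeness over these libraries to FP017215.1, a gene named for its p, these differences follow in part from that choice. They are given as values alone and are no separate support.

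A pair of genes had the smallest p among those with lower means at citalopram 10 µg/L. BX005392.1 (chromosome 24, 17409681 to 17413936, minus strand), a processed transcript that RefSeq holds as lncRNA, had 0.974, 0.379, 0.431 and 0.904 FPKM, against 1.65, 1.44, 1.90 and 1.58 FPKM in ERM, without overlap (-0.68, SE 0.19, limma adjusted p = 1.00). At citalopram 1000 µg/L it averaged 0.787 ± 0.547 FPKM, against 1.64 ± 0.192 FPKM in ERM (SD, n = 4 each). BX005416.1 (mhc1zda, chromosome 1) had 18.1, 12.2, 12.8 and 14.8 FPKM at citalopram 10 µg/L, against 17.7, 23.8, 19.5 and 20.3 FPKM in ERM, where 1 library of each group overlapped (-0.47, SE 0.14, limma adjusted p = 1.00).

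For ifosfamide against ERM, BX004991.1 and BX005129.1 had the smallest p at 100 µg/L among higher and lower means. BX004991.1 (chromosome 9, 1575420 to 1580044, plus strand), a lincRNA gene near pde11a, a phosphodiesterase gene, had 1.86, 1.38, 1.62 and 1.45 FPKM at ifosfamide 100 µg/L, against 0.748, 1.33, 0.751 and 0.945 FPKM in ERM, without overlap (0.41, SE 0.15, limma adjusted p = 0.920). At ifosfamide 1 µg/L it had 1.26, 1.63, 1.42 and 1.79 FPKM (0.39, SE 0.15, limma adjusted p = 0.787). BX005129.1 (chromosome 6, 42656722 to 42665345, plus strand), next to the RNA-binding protein gene rbm6, had 0.959, 1.35, 0.670 and 0.473 FPKM at ifosfamide 100 µg/L and 0.411, 0.836, 0.427 and 1.04 FPKM at 1 µg/L, against 1.77 ± 0.236 FPKM in ERM (SD, n = 4), where the lowest library had 1.53 FPKM. Neither ifosfamide group overlapped ERM (-0.59, SE 0.22, limma adjusted p = 0.920, and -0.74, SE 0.22, limma adjusted p = 0.787), on 40 and 34 reads against 83.

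AL935184.1 (chromosome 1) averaged 1.07 ± 0.744 FPKM at ifosfamide 100 µg/L, against 2.49 ± 0.614 FPKM in ERM (SD, n = 4 each), with overlap (-0.80, SE 0.31, limma adjusted p = 0.920). All 4 drug groups averaged 0.916 to 1.07 FPKM, citalopram 1000 µg/L without overlap with ERM, and their mean differed from ERM by -0.84 (SE 0.24, limma adjusted p = 0.660). BX548077.1 (birc6-as2, chromosome 17, 22687170 to 22689640, minus strand) is antisense to birc6, an inhibitor of apoptosis. It had 1.99, 2.76, 1.95 and 0.890 FPKM at ifosfamide 1 µg/L, against 3.87, 3.33, 3.69 and 5.74 FPKM in ERM, without overlap (-0.85, SE 0.27, limma adjusted p = 0.787). In that comparison birc6 itself had a log2 difference of -0.15.

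Between the doses of citalopram, 2 lncRNA genes lay wholly higher (0.541%, against 0.451% of all gene models) and 2 wholly lower (0.541%, against 0.826%) at 1000 µg/L. AL732567.1 (chromosome 6), inside a gene model named srsf3a on the same strand, had 5.66, 5.59, 8.79 and 6.60 FPKM at 1000 µg/L, against 4.51, 4.10, 4.66 and 3.76 FPKM at 10 µg/L (0.53, SE 0.21, limma adjusted p = 1.00). CU928046.1 (chromosome 14) averaged 5.29 ± 3.07 FPKM at 1000 µg/L and 2.47 ± 0.795 FPKM at 10 µg/L (SD, n = 4 each), with overlap (0.77, SE 0.26, limma adjusted p = 1.00), or 0.48 without library C. Lower at 1000 µg/L were CU138533.1 (-0.49, SE 0.17, limma adjusted p = 1.00) and BX649416.2 (chromosome 22), with 3.82, 3.75, 3.35 and 3.75 FPKM, against 6.03, 4.34, 5.23 and 5.67 FPKM at 10 µg/L (-0.43, SE 0.17, limma adjusted p = 1.00).

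Between the doses of ifosfamide, 3 lncRNA genes lay wholly higher (0.811%, against 0.644% of all gene models) and 2 wholly lower (0.541%, against 0.522%) at 100 µg/L. CU571079.1 (chromosome 8) had 6.65, 6.74, 6.85 and 5.80 FPKM at 100 µg/L, against 5.38, 3.42, 4.54 and 5.20 FPKM at 1 µg/L (0.43, SE 0.16, limma adjusted p = 1.00). CU469577.1 (chromosome 7) averaged 5.05 ± 1.29 FPKM at 100 µg/L and 2.83 ± 1.25 FPKM at 1 µg/L (SD, n = 4 each), with overlap (0.68, SE 0.25, limma adjusted p = 1.00). CU633486.1 (chromosome 15, 118 bases), which holds mir-142b, a microRNA of blood cells, had 0, 0, 1.31 and 0.617 FPKM at 100 µg/L, against 2.57, 2.18, 2.67 and 2.71 FPKM at 1 µg/L. These rested on 3 and 16 reads, and ERM spanned 0 to 4.24 FPKM. The gene reached the limit for testing only through ifosfamide 1 µg/L (2.53 FPKM, against a mean of 0.986 FPKM over the other 4 groups), so its difference is given as a value alone (-1.34). It is among the 2 counted as wholly lower. Of the 370 tested lncRNA genes, 17 reached the limit only through their highest group, and the counts and shares given here include them. CU467110.1 (chromosome 1) averaged 0.711 ± 0.201 FPKM at 100 µg/L and 1.48 ± 0.796 FPKM at 1 µg/L (SD, n = 4 each), with overlap (-0.49, SE 0.20, limma adjusted p = 1.00). For the mean of the 4 drug groups against ERM, 0 lncRNA genes had all 16 exposed libraries above all ERM libraries, against 0.0558% of all gene models, and 0 had them below, against 0.0355%.

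**Figure D5:**
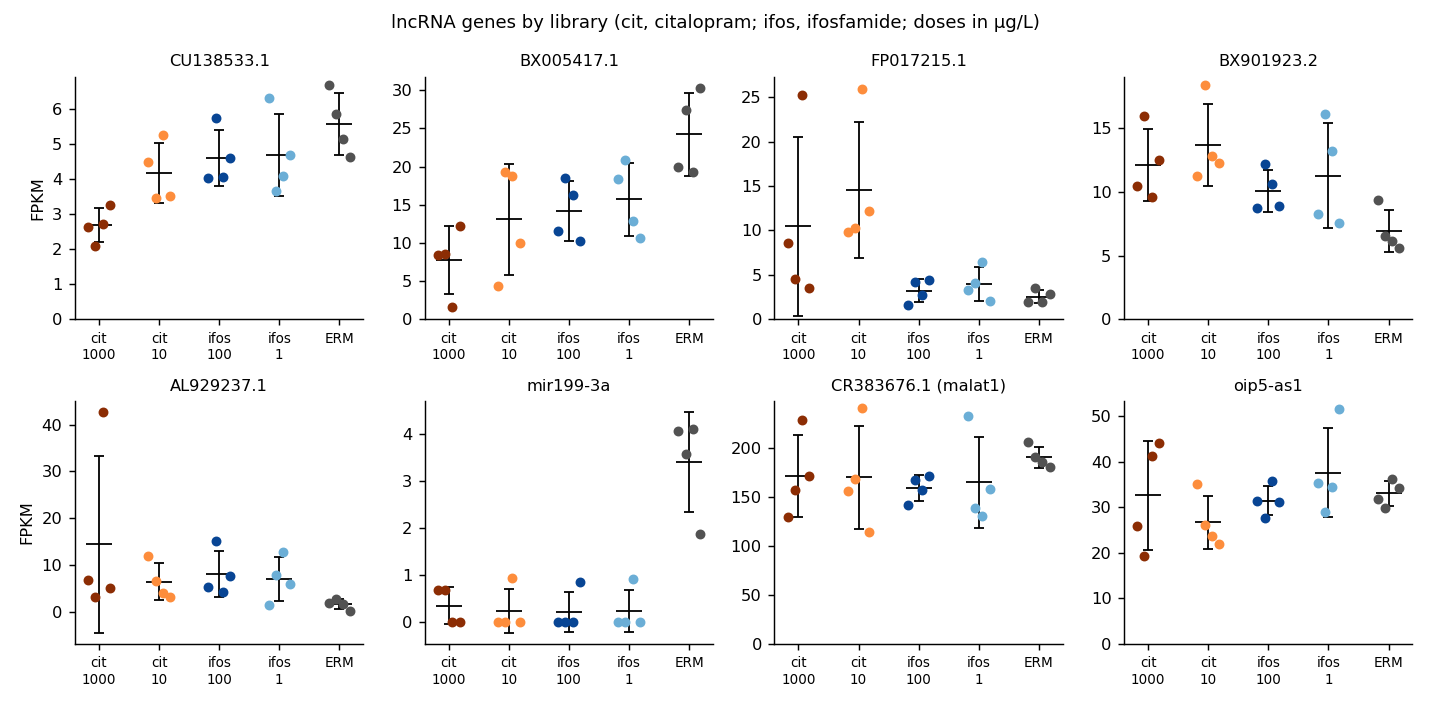
FPKM of 8 lncRNA genes in every library, grouped by exposure, with the mean as a bar and the SD as whiskers (n = 4 each). CU138533.1 and BX005417.1 lie below ERM in all 4 libraries of citalopram 1000 µg/L, FP017215.1 lies above ERM in all libraries of both citalopram groups, and mir199-3a had most of its few reads in ERM.

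Of the lncRNA genes with known names, malat1 and oip5-as1 held 330314 and 42180 reads, and neither passed the threshold in any comparison at the main settings. At citalopram 1000 µg/L each passed it in 1 of 19 alternative settings, a fit with library weights. Such fits called 19.7% (a single weight per library) and 0.847% (gene-by-gene weights) of all gene models there. The malat1 gene had 129, 157, 228 and 171 FPKM at citalopram 1000 µg/L, 156, 168, 241 and 114 FPKM at citalopram 10 µg/L, 141, 167, 157 and 171 FPKM at ifosfamide 100 µg/L and 232, 139, 130 and 158 FPKM at ifosfamide 1 µg/L, against 206, 190, 186 and 180 FPKM in ERM. Ifosfamide 100 µg/L alone did not overlap ERM (-0.26, SE 0.22, limma adjusted p = 0.920). The log2 differences of the other groups from ERM were -0.18, -0.21 and -0.24 in the order citalopram 1000, citalopram 10 and ifosfamide 1 µg/L, with -0.33 at citalopram 1000 µg/L without library C. Libraries of ERM lay within 180 to 206 FPKM, inside the ranges of citalopram 1000, citalopram 10 and ifosfamide 1 µg/L.

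The oip5-as1 gene (ENSDARG00000093456, chromosome 13, 33261131 to 33301170, minus strand) averaged 32.3 FPKM. On the opposite strand its span shares 12654 bases with tmem39b (9.22 FPKM), 11560 with ccdc28b (6.94 FPKM) and 2833 with iqcc (1.75 FPKM). The oip5-as1 level was 32.6 ± 11.9 FPKM at citalopram 1000 µg/L, 26.7 ± 5.81 FPKM at citalopram 10 µg/L, 31.4 ± 3.26 FPKM at ifosfamide 100 µg/L and 37.5 ± 9.80 FPKM at ifosfamide 1 µg/L, against 33.0 ± 2.80 FPKM in ERM (SD, n = 4 each). Each of its groups overlapped ERM, and the log2 differences from ERM lay between -0.32 and 0.15. The 95% interval of the difference at citalopram 1000 µg/L was -0.55 to 0.38, which includes 0, so neither a fall nor a rise within it was excluded. The difference itself was -0.09, or -0.22 without library C.

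Of the microRNA-named lncRNA genes, mir736 had no read. The mir199-3a gene (ENSDARG00000082451, chromosome 20, 14875460 to 14875546, plus strand) and mir214a (ENSDARG00000083042, 2093 bases away) are typed as antisense in the table and lie opposite dnm3a, a dynamin gene. In mouse the transcript opposite Dnm3 is the precursor of miR-199a and miR-214, which act in skeletal development. The mir199-3a model is 87 bases long, and its mean of 0.882 FPKM left it below the limit for testing. It had 0.680, 0.684, 0 and 0 FPKM at citalopram 1000 µg/L, against 4.07, 3.56, 4.11 and 1.86 FPKM in ERM. Its reads numbered 2 for citalopram 1000 µg/L, 1 for citalopram 10 µg/L, 1 for ifosfamide 100 µg/L and 1 for ifosfamide 1 µg/L, against 15 in ERM. The rate over the 16 exposed libraries was 0.0799 of that in ERM, with an exact 95% interval of 0.0227 to 0.231 that covers counting error only.

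When the limit was lowered to a mean of 0.1 FPKM, mir199-3a passed the threshold at citalopram 1000 µg/L (log2 difference -1.73, limma adjusted p = 0.0398; 0.0238% of all gene models called), citalopram 10 µg/L (-1.86, limma adjusted p = 0.0289; 0.0136%) and ifosfamide 100 µg/L (-1.88, limma adjusted p = 0.0440; 0.00681%), but not at ifosfamide 1 µg/L (-1.87, limma adjusted p = 0.0970). With no limit beyond 1 read the adjusted p values were 0.0774, 0.0530, 0.0937 and 0.205, and the mean of the drug groups passed under both limits (-1.83, limma adjusted p = 0.00450 and 0.0115), as did 0.0170% and 0.00871% of all gene models. Without the limit a single further lncRNA gene passed, BX530017.2 between the ifosfamide doses, beside 0.00581% of all gene models, with 2 reads at 100 µg/L and 24 at 1 µg/L (-0.34, limma adjusted p = 0.0486). These comparisons share the ERM libraries. The mir214a gene had 0, 0, 3 and 2 reads in the citalopram 1000, citalopram 10, ifosfamide 100 and ifosfamide 1 µg/L groups and 6 reads in ERM, from libraries A and E. The gene on the other strand, dnm3a, had log2 differences from ERM of 0.01, -0.07, -0.17 and -0.24 in the same order.

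A further 30 lncRNA genes were listed at 0 in every library of 1 or more groups while above 0 in every library of another, which is 1.13% of the 2656, against 0.400% of all gene models. They were at 0 in citalopram 1000 µg/L for 8 genes (0.301%, against 0.111%), in citalopram 10 µg/L for 11 (0.414%, against 0.134%), in ifosfamide 100 µg/L for 3 (0.113%, against 0.0723%), in ifosfamide 1 µg/L for 2 (0.0753%, against 0.0517%) and in ERM for 12 (0.452%, against 0.116%). All 30 were low. The highest mean was that of CR589944.2 (0.739 FPKM, 175 bases), at 0 in ifosfamide 1 µg/L, against 8 reads in ERM, where 3 reads in a library at 0 would have given up to 1.37 FPKM. BX537104.1, antisense to xaf1, a gene known in human for interferon induction, had 19 reads at citalopram 1000 µg/L and 4 in ERM, and was at 0 in ifosfamide 100 µg/L. BX005329.1 had 6 reads at ifosfamide 100 µg/L and 9 at ifosfamide 1 µg/L, and was at 0 in ERM. BX323855.2 was at 0 in citalopram 1000 µg/L, against 10 reads in ERM. At 3 reads per library all of these groups at 0 could hold values of 0.373 to 1.37 FPKM, so absence was not shown.

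Genes known to act in the making and decay of polyadenylated non-coding RNA were measured beside the lncRNA genes. The list of 40 symbols covered the RNA exosome, its nuclear cofactors, the cap-binding complex, poly(A)-binding proteins, nonsense-mediated decay and paraspeckle proteins, with malat1 itself. Of its genes, 32 were tested. In each comparison 0 passed the threshold in either direction. An unadjusted p under 0.05 was found for 4 genes with citalopram 1000 µg/L, for 1 with citalopram 10 µg/L, for 1 with ifosfamide 100 µg/L and for 3 with ifosfamide 1 µg/L, where 7.27%, 2.42%, 3.27% and 4.80% of all gene models had one. Their median log2 differences from ERM were 0.00, 0.02, -0.03 and -0.10, beside 0.0003, -0.0016, -0.0090 and -0.0069 over all gene models.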

How the data were processed

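The authors deposited FPKM values for 38718 gene models, 1 column per library, with positions, lengths and biotypes. Per the submitters' processing notes, the tools were HISAT2, featureCounts, fastp and DESeq2 (no version or role given) and the build was GRCz11. The annotation release is not given in the sources used here. Multiplying each FPKM by gene length and scaling by the value of 1 read in that library gave whole reads for 100% of values above 0 (within 1e-06). The libraries were scaled by median-of-ratios size factors (0 libraries off by over 1e-06), and FPKM were compared as deposited.

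Groups were compared by limma 3.58.1 (R 4.3.3). The values were log2(FPKM + 1), the variance followed an intensity trend, and the fit covered the 19723 gene models with a mean of at least 1 FPKM, in all 20 libraries (15 residual degrees of freedom). All p-values are two-sided and adjusted over all 19723 (Benjamini-Hochberg), and each change is a difference of group means on that scale, which understates changes of low genes. The fit was also run on simulated data. These had independent normal noise with the same SD of a gene in every library, so a library that stands apart was not covered. Tables were handled with pandas 2.3.3 in Python 3.11.15, and figures used matplotlib 3.10.9.

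The lncRNA genes, lists and comparisons were chosen with earlier results of these data known. Genes were named by rule: the 2 smallest p per comparison and direction, the 10 highest, the 4 most and 2 least variable, those with known names, up to 4 at 0 in a group, their neighbours, and the 3 most like the gene with the smallest F-test p. The hosts of small RNAs, and examples of protein-coding symbols, were chosen after values were seen. Reference names came from Ensembl symbols and RefSeq (GRCz12tu). Library letters were not taken to pair samples.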

Additional observations from a re-analysis of the deposited data

Results flagged for a closer look

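In groups of 4 libraries a single library stood far from the other 3 in 9 of 185 groups of values checked, where chance alone marks about 1 in 20. The 9 were near that share. Library C of citalopram 1000 µg/L accounted for 3. It had 700 lncRNA genes with a read, against 1146 to 1190 in the other 3 libraries of the dose. BX511023.1 was listed there at 0 FPKM, against 5.77 to 6.82 FPKM, and BX649416.2 was at 3.35 FPKM (19 reads), against 3.75 to 3.82 FPKM (34 to 42 reads). Library D of the same dose had 1.88 FPKM of BX548077.1 (birc6-as2), against 5.03 to 5.30 FPKM, and 57.6 FPKM of CR354556.3, against 66.7 to 67.2 FPKM.

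At citalopram 10 µg/L, CU633486.1 was at 0.726 FPKM in library B, against 1.33 to 1.37 FPKM in the others, which is 1 read against 2 in each. FQ323156.1 was at 25.6 FPKM in library D of that dose, against 47.9 to 51.0 FPKM. In ERM, library B had 7.48 FPKM of BX511023.1, against 2.30 to 2.83 FPKM, and 1.29 FPKM of CR759794.1 (mocos), against 1.82 to 1.95 FPKM.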

How the results depend on the processing

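The count of called lncRNA genes stayed at 0 in all comparisons under a pseudocount of 0.1 or 0.5, scaling to total reads, voom and Ensembl gene models alone. As the fit stayed the same, leaving out the genes with protein-coding symbols could not change this count. It was 0 as well with only the groups compared, which was run for the 6 comparisons of 2 groups. With the replicate letter as a block it was 0 in each comparison as well. Whether the letters pair samples is not given in the sources used here. Of 36 same-letter pairs, 13 correlated over 0.1. The median correlation was 0.02 over these pairs and 0.00 over 124 pairs of unlike letters. Of 20 libraries, 6 correlated best with their own letter, and library E of ERM has no partner of its letter. These values cannot decide whether samples were paired. With a limit of 0.1 FPKM the count was 1 at citalopram 1000, citalopram 10 and ifosfamide 100 µg/L and for the mean of the drug groups, each time mir199-3a. With no limit it was 1 for that mean (mir199-3a) and 1 between the ifosfamide doses, BX530017.2, with 2 reads at 100 µg/L and 24 at 1 µg/L (-0.34, limma adjusted p = 0.0486). Leaving out 1 library gave 0 to 1 calls for citalopram 1000 µg/L (CU138533.1 without library D), 0 to 1 for citalopram 10 µg/L (FP017215.1 without library C of citalopram 1000 µg/L), and 0 otherwise. Library weights, whose first estimate did not converge and spanned 0.1283 to 15.6884, gave 89, 1, 2 and 3 calls for citalopram 1000, citalopram 10, ifosfamide 100 and ifosfamide 1 µg/L against ERM, 24 between citalopram doses, 0 between ifosfamide doses, 6 for the mean and 185 in the F-test. Gene-by-gene weights, added after the data were seen, gave 5, 1, 8, 36, 0, 0, 9 and 47, so calls rest on how libraries are weighted, and the cause was not tested. Of 809 alternative values of 38 named differences, 775 kept direction and side of the threshold, 31 passed it and 3 reversed. Those that passed did so under library weights, apart from CU138533.1 without library D and FP017215.1 without library C, both of citalopram 1000 µg/L. A single weight per library called 19.7% of all gene models at citalopram 1000 µg/L. The 3 reversals were all of oip5-as1: 0.13 at citalopram 1000 µg/L without its library B (-0.25 to 0.13 with 1 library left out), 0.07 at ifosfamide 100 µg/L under scaling to total reads, and -0.01 at ifosfamide 1 µg/L without its library D (-0.01 to 0.26).

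Detected lncRNA genes numbered 1450 at 3 or more reads, 988 without those that overlap another gene model, 697 for lincRNA alone, and 2027 to 2049 with 1 library left out. The share of reads, in the order citalopram 1000, citalopram 10, ifosfamide 100, ifosfamide 1 µg/L and ERM, was 0.193%, 0.186%, 0.217%, 0.220% and 0.195% without overlapping genes, 0.501%, 0.485%, 0.553%, 0.571% and 0.528% without FO704736.1, and 1.14%, 1.09%, 1.14%, 1.15% and 1.11% as a share of summed FPKM. Without the genes with protein-coding symbols it was 0.428%, 0.419%, 0.479%, 0.498% and 0.460%. The median within-group SD of lncRNA genes at 1 to 10 FPKM was 0.383, 0.553 with a pseudocount of 0.1, and 0.338 without library C of citalopram 1000 µg/L.

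Depth limits what was seen: tested lncRNA genes had a median of 41.8 reads per library, against 181 for protein-coding genes.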
